A study of Rattus norvegicus with 8 samples.

Results

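Voltage-gated sodium and calcium channels were followed at the level of their messenger RNA in rat hippocampal neurons that carried an shRNA against Sirt6, against neurons that carried a scrambled shRNA. SIRT6 is an NAD-dependent deacetylase of the sirtuin family that acts on chromatin. The channel probes were those whose gene name in the array files begins with Cacna, Cacnb or Cacng, or with Scn and a digit, which gave 67 of the 45598 non-control probes and 40 of the 36174 gene names on the array. The probes were taken by name alone and by no measured value, but the channels were chosen with earlier results of these data known.

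The 2 groups of 4 arrays each were made from hippocampal neurons of Wistar rats taken on postnatal day 0 to 1. Both groups received a lentivirus at a multiplicity of infection of 6 on day 3 in vitro, and RNA was taken 7 days later, on day 10, from cells kept in Neurobasal A with B27 and Glutamax. One group carried an shRNA that targets Sirt6 and the other a scrambled shRNA, so each group rests on 1 sequence and any other effect of either vector is part of the comparison. The labels do not say that the 4 samples of a group were separate cultures, so the p-values below rest on a spread between samples that may be technical only.

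Voltage-gated channels open when the membrane is depolarised. Sodium channels carry the upstroke of the action potential and consist of 1 large pore protein, encoded by genes such as Scn2a, with small beta subunits that act on gating, adhesion and placement in the axon. Calcium channels turn depolarisation into calcium entry for transmitter release, dendritic signalling and gene expression. Their pores come from the Cacna1 genes, their delivery to the membrane is aided by the alpha2delta (Cacna2d) and beta (Cacnb) subunits, and most members of the gamma family (Cacng) in brain serve as auxiliary proteins of AMPA receptors, called TARPs. In the developing hippocampus Scn3a is the pore gene known for its early expression, whereas Scn2a, Scn1a and Scn8a are the main pores of the mature brain.

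The sequences below belong to the probes on which the largest differences rest. Each line gives the first 30 bases of a 60-base probe, 5′ to 3′, with its place in the rn4 build as the design gives it. Exon and UTR annotation of that build was not used here.
Scn3a A_44_P1103645, chr3:47419592-47419651, minus strand: gtaacaccctgctacattatctaccgagaa
Scn3a A_64_P103000, chr3:47421917-47421976, minus strand: ccttcctatgacagtgtaacaaaaccagat
Scn7a A_42_P804822, chr3:48633684-48633743, minus strand: gtatttcttgcaacttgaagaaaatgaccc
Scn7a A_64_P026716, chr3:48634739-48634798, minus strand: actctaaaggtgtccactctggtcaaatcg
Cacng3 A_64_P129720, chr1:181594005-181594064, plus strand: ttctacagttccacaactccacacccaaag
Cacna1e A_42_P513859, chr13:69359930-69359989, minus strand: tagaagatgaacacgtaggattggatcaag
The probes of Scn3a and of Scn7a lie on different stretches of their genes, so within each gene the readings come from separate sequences.

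Across the 8 arrays, 60.4% to 65.3% of probes were well above background and the median signal ran between 24.1 and 27.5. Profiles correlated across probes, which are not independent replicates, at r = 0.9953 to 0.9974 within a group and 0.991 to 0.9934 between groups. All arrays lay on 1 slide and in 1 scan, with the Sirt6 shRNA arrays in row 2 and the scrambled arrays in row 1, and the part of the slide row in any difference cannot be told apart from that of the shRNA. A level here is the log2 signal minus its array's 75th percentile, and a difference is the mean level with the Sirt6 shRNA minus that with the scrambled shRNA. Sirt6 itself read 0.55, 0.58, 0.50 and 0.46 with its shRNA, against 2.10, 2.04, 2.02 and 2.06 with the scrambled shRNA. Its difference was -1.53 (SE 0.041, adjusted p = 7.73e-06, limma), which left 34.6% of the level.

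Of the labelled cell type, all 10 neuronal markers were well above background on enough arrays to be tested. At a limma adjusted p under 0.05, Tubb3 (difference 0.32), Rbfox3 (0.25) and Map2 (0.16) were called higher with the Sirt6 shRNA, Stmn2 (-0.22) lower, and 6 were not called. Their summed level, in units of the 75th percentile, was 134 to 148 in the Sirt6 shRNA arrays and 136 to 139 in the scrambled arrays. Other cell types were measured too, each gene on its brightest probe. The calls of a list are to be read against the 28.4% of all probes that were called, a share that counts every kept probe of a gene. With only the brightest probe per gene tested, 3531 were higher and 3366 lower of 22795. Of 13 astrocyte markers 9 were lower and 1 higher (76.9% called, median difference -0.22), and their sums were 301 to 331 in the Sirt6 shRNA arrays and 422 to 457 in the scrambled arrays. Of 13 GABAergic interneuron markers 7 were lower and 4 higher (84.6%), with overlapping sums of 188 to 209 in the Sirt6 shRNA arrays and 207 to 229 in the scrambled arrays. Of 12 endothelial, mural and smooth muscle markers 7 were tested, 5 higher and 0 lower (71.4%). Their sums were 11.6 to 14.2 in the Sirt6 shRNA arrays and 3.83 to 4.60 in the scrambled arrays. Tagln was the largest part of these sums, with a log2 level of 3.41 with the Sirt6 shRNA and 1.27 with the scrambled shRNA. The 2 not called were Pecam1 (difference -0.46) and Pdgfrb (-0.074). Fibroblast markers had 5 higher and 2 lower of 9 tested out of 10 (77.8%). Their sums were lower, at 28.3 to 30.6 in the Sirt6 shRNA arrays and 30.7 to 35.0 in the scrambled arrays. In these sums the 2 lower genes, Mgp (difference -1.72) and Fmod (-1.97), outweighed the 5 higher ones. The shares of the remaining lists were nearer to that of all probes. Excitatory neuron markers had 3 higher and 0 lower of 9 tested out of 10 (33.3%). Their sums overlapped, at 66.5 to 72.8 in the Sirt6 shRNA arrays and 63.0 to 68.3 in the scrambled arrays. Microglial markers had 0 higher and 3 lower of 11 (27.3%), with overlapping sums of 21.1 to 41.9 in the Sirt6 shRNA arrays and 29.5 to 41.5 in the scrambled arrays. Oligodendrocyte lineage markers had 1 higher and 3 lower of 12 (33.3%), with sums of 43.4 to 45.4 in the Sirt6 shRNA arrays and 48.6 to 53.9 in the scrambled arrays. Muscle markers had 2 higher and 0 lower of 6 tested out of 10 (33.3%). Their sums were 1.81 to 2.004 in the Sirt6 shRNA arrays and 1.40 to 1.73 in the scrambled arrays. What these cells contribute to the channel probes was not tested. In such bulk RNA, fewer cells of a type and less RNA per cell cannot be told apart.

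Of the 67 channel probes, 54 probes of 32 genes stood well above background on 4 or more arrays and were tested. At a limma adjusted p under 0.05, with adjustment over all 28619 probes tested, 18 channel probes were called, 11 higher and 7 lower, and 25 had an unadjusted p under 0.05. This is 33.3% of the channel probes tested, against 28.4% of all probes tested, of which 14.1% were higher and 14.4% lower. The groups did not overlap for 21 channel probes, or 38.9%, against 32.1% of all probes. The median difference was 0.035 among channel probes and 0.016 among all probes, and the median absolute difference was 0.16 among channel probes and 0.14 among all probes. These shares are near those of all probes, and the differences were small: 3 channel probes reached 1.5-fold, among them both of Scn7a.

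The balance of higher and lower calls moved with the scaling. After each array was centred on its median, 5 channel probes were higher and 7 lower, and after scaling on the E1A spike-ins 3 were higher and 3 lower. Higher probes made up 49.5% of all calls here, 33.5% after median centring and 62.4% after spike-in scaling. The probes of Scn3a, Cacng3 and Scn7a were among the 6 called under spike-in scaling. Leaving out 1 array gave 6 to 10 higher and 5 to 6 lower channel calls. The number of higher calls dropped below 11 by more than 1.5 times without scrambled replicate 1 (7), 2 (6) or 4 (7), and without Sirt6 shRNA replicate 3 (7) or 4 (6).

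**Figure D1:**
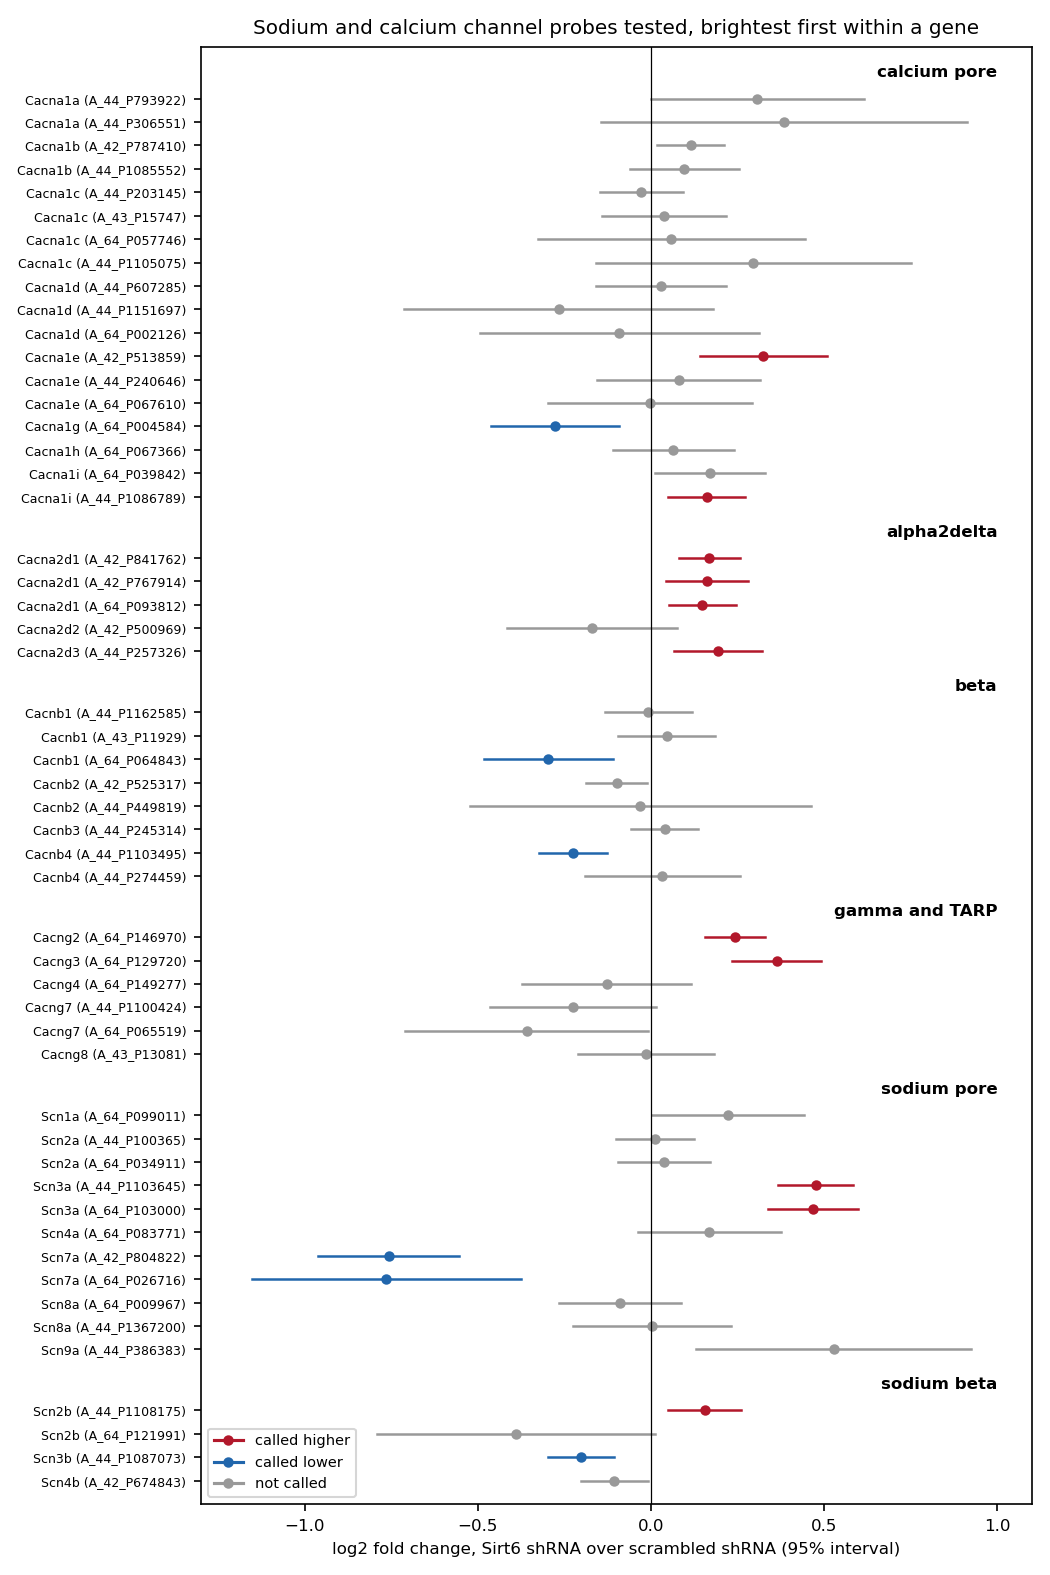
Difference in log2 signal, Sirt6 shRNA over scrambled shRNA, of 52 channel probes tested, with 95% intervals, grouped by role; red marks probes called higher, blue probes called lower and grey those not called. The intervals of Scn3a lie furthest above 0 among called probes, and the brighter Scn7a probe lies at -0.76.

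Among the sodium channel pores, Scn3a rose and Scn7a fell, each on both of its probes, while neither probe of Scn2a was called. The 10 pore genes had 14 probes, of which 12 probes of 8 genes were tested. Of these, 2 were called higher and 2 lower, where 28.4% of all probes tested were called. Scn3a encodes a pore that is prominent in embryonic and neonatal brain. Its brighter probe read 1.97, 1.91, 1.94 and 1.92 with the Sirt6 shRNA, against 1.48, 1.38, 1.56 and 1.41 with the scrambled shRNA. Its other probe read 1.55, 1.33, 1.42 and 1.32 with the Sirt6 shRNA, against 0.94, 0.97, 0.92 and 0.92 with the scrambled shRNA. All 4 Sirt6 shRNA arrays lay above all 4 scrambled arrays on both probes. The differences were 0.48 (SE 0.047, adjusted p = 0.000331, limma) and 0.47 (SE 0.057, adjusted p = 0.00083, limma), or 1.39-fold and 1.38-fold. The changes of the 2 probes differed by 0.0081 (exact permutation test, two-sided, p = 0.914).

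Scn7a encodes an atypical member of the sodium channel family that responds to extracellular sodium in place of voltage and is known from glia of the rodent brain's sodium-sensing regions. The brighter probe read -0.35, -0.18, -0.48 and -0.60 with the Sirt6 shRNA, against 0.31, 0.29, 0.43 and 0.38 with the scrambled shRNA. On the dimmer probe the levels were -4.03, -3.80, -4.33 and -4.52 with the Sirt6 shRNA, against -3.70, -3.38, -3.25 and -3.30 with the scrambled shRNA. Every Sirt6 shRNA array was below every scrambled array on both probes. The differences of -0.76 (SE 0.088, adjusted p = 0.000681, limma) and -0.76 (SE 0.168, adjusted p = 0.012, limma) correspond to a 1.69-fold and a 1.7-fold lower signal. The size on the dimmer probe was smaller where a constant was added to the signals. Under normexp background correction, which here adds an offset of 50 to each corrected signal, it was -0.27, against -0.63 on the brighter probe. With 16 added to each signal the dimmer probe gave -0.47 and the brighter -0.72. Of the 13 astrocyte markers, 9 were lower alongside it, with Gfap at a log2 difference of -0.71 and S100b at -1.42, while Gjb6 was higher at 1.15 and 3 were not called. Their part in the difference of Scn7a was not tested.

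The main pores of the mature brain were not called. Scn2a, the main pore of early excitatory axons, read 2.48, 2.32, 2.41 and 2.32 with the Sirt6 shRNA, against 2.41, 2.32, 2.35 and 2.40 with the scrambled shRNA. The groups overlapped on this probe (difference 0.012, 95% interval -0.10 to 0.12) and on its other probe (0.038, -0.10 to 0.17). Scn8a, the pore of mature axon initial segments and nodes, had differences of -0.088 (-0.26 to 0.09) and 0.0023 (-0.23 to 0.23). Scn1a, prominent in inhibitory neurons that fire fast, read -0.21, -0.34, -0.29 and -0.38 with the Sirt6 shRNA, against -0.62, -0.70, -0.26 and -0.54 with the scrambled shRNA. Its groups overlapped through scrambled replicate 3 (difference 0.22, adjusted p = 0.12, limma), and without that array the difference was 0.31 with an adjusted p of 0.0119.

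Scn9a, known for its role in nociceptors, read -2.87, -2.98, -3.14 and -3.04 with the Sirt6 shRNA, against -3.77, -3.93, -3.22 and -3.21 with the scrambled shRNA. The groups did not overlap, but the scrambled arrays were widely spread, and the difference of 0.53 (SE 0.172, 95% interval 0.13 to 0.93) missed the threshold (adjusted p = 0.0539, limma). It passed without scrambled replicate 3 (0.63, adjusted p = 0.0359) or 4 (0.64, adjusted p = 0.035). With a smaller size it also passed under normexp correction with offset 50 (0.19, adjusted p = 0.0296) and with 16 added (0.34, 0.0326). At the same size it passed with the trend and robust options of eBayes (0.0235). The same held with only probes well above background on all 8 arrays (0.0436). Scn4a, the pore of skeletal muscle, was well above background on all 8 arrays, with a difference of 0.17 (adjusted p = 0.196). Scn10a, a nociceptor pore, stood well above background on 0 arrays, and Scn11a, another, was so on 0 Sirt6 shRNA arrays and 3 scrambled arrays.

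5 of these pore genes are neighbours on rat chromosome 3. In rn4 the brightest probes of Scn3a, Scn2a, Scn1a, Scn9a and Scn7a stand in that order, with gaps of 300.7, 518.3, 200.3 and 194.8 kb. The outermost genes of this stretch were thus called in opposite directions and the 3 between them were not called. The change of Scn3a exceeded that of Scn2a by 0.46 (exact permutation test, two-sided, p = 0.0286, the smallest that 4 against 4 arrays allow). The change of Scn9a exceeded that of Scn7a by 1.28 with the same p of 0.0286 by that exact test. Over the 4 neighbouring pairs compared, these exact tests had Benjamini-Hochberg values of 0.0572 for Scn3a with Scn2a and 0.143 for Scn2a with Scn1a. They were 0.0761 for Scn1a with Scn9a and 0.0572 for Scn9a with Scn7a, so none passed 0.05. With the smallest p of the exact test at 0.0286, a pair could pass only if most of the 4 pairs reached it. The adjusted values therefore cannot decide whether a single pair differs.

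**Figure D2:**
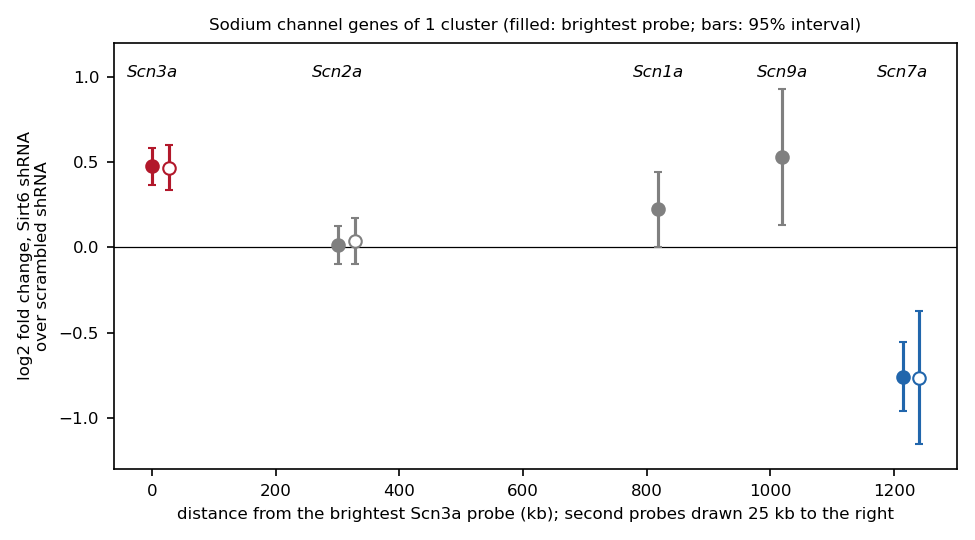
Log2 difference, Sirt6 shRNA over scrambled shRNA, of the sodium pore genes of chromosome 3 by distance in kb from the brightest Scn3a probe; filled points are each gene's brightest probe, open points its second probe, drawn 25 kb to the right, and bars 95% intervals. The Scn3a probes lie at 0.48 and 0.47 and both Scn7a probes at -0.76, with Scn2a at 0.012 and 0.038.

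The upstream sequences of the outermost pair, from RefSeq (GRCr8), are the 250 bases before each annotated start, on the gene's strand. They are most of the windows that were searched, which also take in the first bases after the start. Both strands were searched for the palindrome of the cyclic AMP response element (TGACGTCA), an AP-1 site (TGANTCA) and the E-box CACGTG. A further motif was the letters called here the RE1 core (TTCAGCACC, 2 bases of any kind, then GGAC). These letters are part of the longer element bound by the repressor REST, and the remainder of that element was not searched for. The motifs were chosen after the values had been seen. Capitals mark a match.
Scn3a, chr3:70666199-70666448, minus strand: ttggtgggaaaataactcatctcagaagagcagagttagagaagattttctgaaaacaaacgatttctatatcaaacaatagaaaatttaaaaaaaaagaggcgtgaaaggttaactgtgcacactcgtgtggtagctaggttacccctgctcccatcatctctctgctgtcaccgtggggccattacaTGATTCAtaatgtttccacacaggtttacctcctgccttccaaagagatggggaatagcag
Scn7a, chr3:71846285-71846534, minus strand: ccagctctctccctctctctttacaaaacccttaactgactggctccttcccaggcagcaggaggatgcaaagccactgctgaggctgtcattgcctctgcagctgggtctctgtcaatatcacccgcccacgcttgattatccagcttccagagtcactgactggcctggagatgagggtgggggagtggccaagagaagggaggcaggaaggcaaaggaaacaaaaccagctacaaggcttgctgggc
The Scn3a window held 1 AP-1 match, at -61 to -55, and the Scn7a window held none of the 4 motifs. AP-1 letters were in 7.329% of all 33469 RefSeq promoters of this length, and in 1 of the 30 channel promoters, which belong to 27 genes. The cyclic AMP element (1.829% of all) and the E-box (6.418%) were in 0 channel promoters. A match is a run of letters and no measured site.

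Of the sodium channel beta subunits, Scn3b fell and Scn2b rose. Scn3b read 3.34, 3.27, 3.39 and 3.36 with the Sirt6 shRNA, against 3.55, 3.49, 3.57 and 3.57 with the scrambled shRNA. It is a beta subunit of neurons, it was lower in 4 of 4 arrays, and its difference was -0.20 (SE 0.041, adjusted p = 0.00842, limma). Under spike-in scaling it was -0.13 and no longer called (adjusted p = 0.413). A second Scn3b probe was well above background on 1 Sirt6 shRNA array and 0 scrambled arrays and was not tested. Its mean reading was higher with the Sirt6 shRNA, with groups that overlapped.

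Scn2b, whose product is linked to the pore by a disulfide bond, is measured by a probe with 10 spots on the array. It read 3.31, 3.33, 3.39 and 3.47 with the Sirt6 shRNA, against 3.25, 3.19, 3.21 and 3.23 with the scrambled shRNA. The groups did not overlap, and the difference of 0.15 (SE 0.045) had an adjusted p of 0.0371 (limma). That call was kept without Sirt6 shRNA replicate 1 or 2 (adjusted p = 0.0419 and 0.0417) and lost without any other array (0.0541 to 0.0943), and a dim second probe gave -0.39 (adjusted p = 0.134). It was also lost under median centring (0.11, adjusted p = 0.236) and spike-in scaling (0.23, adjusted p = 0.146). Scn4b, which supports resurgent sodium current, read -0.35, -0.20, -0.29 and -0.26 with the Sirt6 shRNA, against -0.18, -0.13, -0.17 and -0.19 with the scrambled shRNA. Its groups did not overlap, but the difference of -0.11 missed the threshold (adjusted p = 0.0961, limma).

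**Figure D3:**
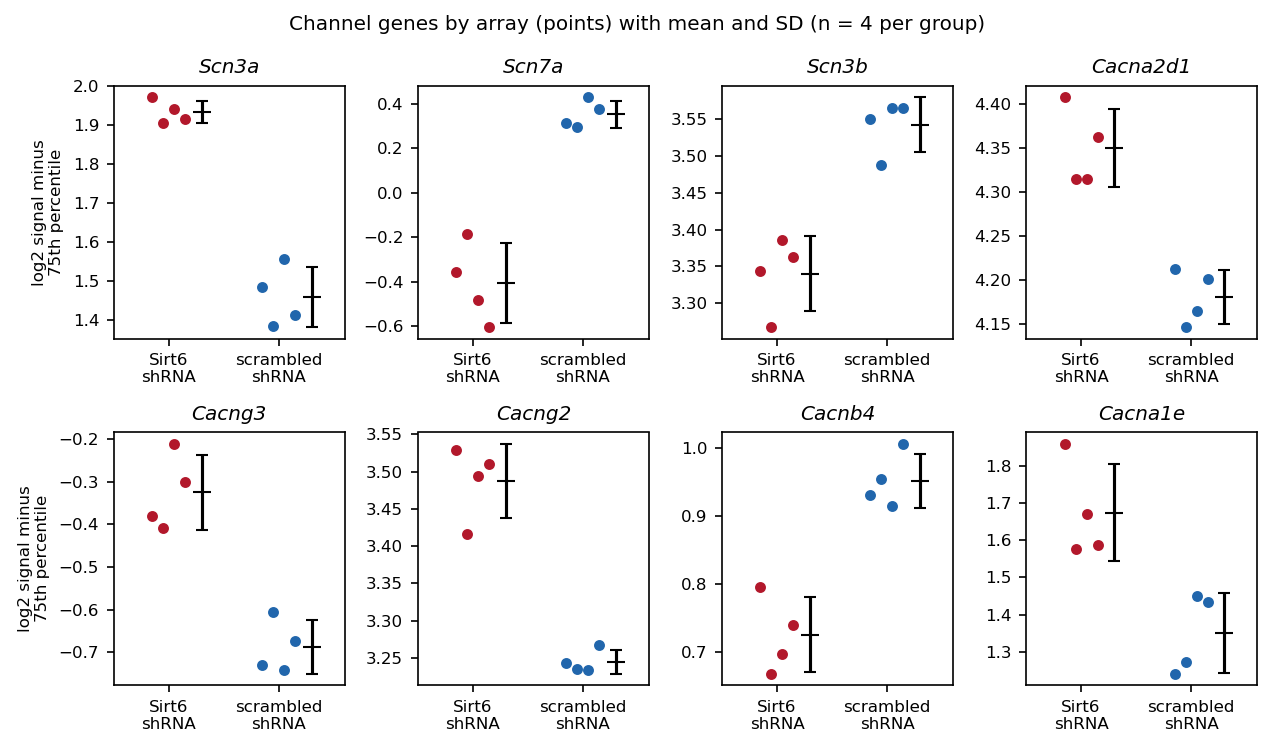
Level (log2 signal minus the array's 75th percentile) on each array for the brightest probe of 8 called channel genes, 4 Sirt6 shRNA arrays in red and 4 scrambled arrays in blue, with mean and SD; the vertical axes differ between panels and do not start at 0. In each panel the 4 arrays of one group all lie above those of the other, with Scn3a, Cacna2d1, Cacng3, Cacng2 and Cacna1e higher and Scn7a, Scn3b and Cacnb4 lower with the Sirt6 shRNA.

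Among the calcium channel pores, the R-type gene Cacna1e and the T-type gene Cacna1i rose on 1 probe each and the T-type gene Cacna1g fell. The 10 pore genes had 23 probes, of which 18 probes of 8 genes were tested. Calls were higher for 2 and lower for 1, against 28.4% called among all probes tested. Cacna1e, whose channel serves dendritic calcium entry, read 1.86, 1.58, 1.67 and 1.59 with the Sirt6 shRNA, against 1.24, 1.27, 1.45 and 1.43 with the scrambled shRNA. The groups did not overlap, and the difference was 0.32 (SE 0.079, adjusted p = 0.0187, limma). It was not called under spike-in scaling (adjusted p = 0.0591), without scrambled replicate 2 (0.0532) or with the mean of the gene's probes (difference 0.13, adjusted p = 0.285). The other probes of the gene, far dimmer, gave 0.08 and -0.0023. The change of the bright probe exceeded that of the second of these by 0.33 (exact permutation test, two-sided, p = 0.0286). Over the 22 pairs of probes compared within 16 genes, that exact test had a Benjamini-Hochberg value of 0.471, the lowest of all pairs. As 0.0286 is the smallest p this exact test allows, a pair could pass only if most of the 22 reached it. The adjusted value therefore cannot decide whether the probes differ.

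The low-threshold, or T-type, channels support rebound firing. Cacna1g read -1.23, -1.21, -1.12 and -1.26 with the Sirt6 shRNA, against -1.17, -0.86, -0.82 and -0.86 with the scrambled shRNA. The groups overlapped through scrambled replicate 1, and the difference was -0.28 (SE 0.08, adjusted p = 0.0355, limma). Without that array it was -0.36 (adjusted p = 0.00245), and without any other array the call was lost (adjusted p = 0.0512 to 0.0898), as it was under spike-in scaling (-0.20, adjusted p = 0.295). Cacna1h, another T-type pore, differed by 0.065 (95% interval -0.11 to 0.24).

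Cacna1i, the T-type pore most restricted to brain, is on the array as a pair of probes with the same 60 bases, and so gives a measure of technical spread. Both names stand for 1 sequence, whose first 30 bases are shown.
Cacna1i A_64_P039842 and A_44_P1086789, chr7:118681478-118681537, plus strand: cgcctgccccatcttgccttcttttacctc
The copy called higher read 1.13, 1.16, 1.06 and 1.16 with the Sirt6 shRNA, against 1.02, 1.03, 0.88 and 0.93 with the scrambled shRNA, and its groups did not overlap (difference 0.16, adjusted p = 0.0408, limma). The other copy read 1.28, 1.21, 1.07 and 1.26 with the Sirt6 shRNA, against 1.05, 1.11, 0.88 and 1.11 with the scrambled shRNA, and was not called (0.17, adjusted p = 0.104), with groups that overlapped. The copy called higher read below the other on every array, by 0.0044 to 0.173, and this gap had an SD of 0.0623. A gap shared by all arrays drops out of a group difference. The group differences were only 0.0095 apart between the copies. The call was lost without scrambled replicate 3 or 4, or Sirt6 shRNA replicate 1, 2 or 4 (adjusted p = 0.0839 to 0.0942), and under median centring (0.202) or spike-in scaling (0.103).

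The pores that serve transmitter release and excitation-transcription coupling were not called. Cacna1b, the N-type pore of presynaptic terminals, read 2.11, 1.97, 2.01 and 2.04 with the Sirt6 shRNA, against 1.89, 1.89, 1.94 and 1.94 with the scrambled shRNA. Its groups did not overlap, and the difference was 0.11 (SE 0.042, adjusted p = 0.0785, limma). Cacna1a, the P/Q-type pore, gave 0.31 and 0.38 on 2 dim probes (adjusted p = 0.124 and 0.246). The L-type pores Cacna1c and Cacna1d signal to the nucleus. The brightest probe of Cacna1c gave -0.028 (95% interval -0.15 to 0.09) and that of Cacna1d 0.028 (-0.16 to 0.22), and their other tested probes ran between -0.27 and 0.30. Cacna1f, the pore of the retina, and Cacna1s, that of skeletal muscle, stood well above background on 0 arrays.

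The alpha2delta subunits bring calcium channels to the membrane, and Cacna2d1 also binds gabapentin. Of the 5 probes tested, of 3 genes, 4 were higher and 0 lower: all 3 probes of Cacna2d1 and the 1 of Cacna2d3. Of all probes tested, 28.4% were called and 14.1% were higher. The calls come from Cacna2d1 and Cacna2d3 alone and are no count of separate genes. The brightest Cacna2d1 probe read 4.41, 4.31, 4.32 and 4.36 with the Sirt6 shRNA, against 4.21, 4.15, 4.17 and 4.20 with the scrambled shRNA. The groups were apart by a small difference of 0.17 (SE 0.038, adjusted p = 0.0137, limma), or 1.12-fold. Its other probes gave 0.16 (adjusted p = 0.0476) and 0.15 (adjusted p = 0.0325), calls that were kept without Sirt6 shRNA replicate 2 (0.0187 and 0.0213) and lost without any other array (0.0507 to 0.118). Cacna2d3 read -0.31, -0.33, -0.16 and -0.12 with the Sirt6 shRNA, against -0.40, -0.43, -0.43 and -0.42 with the scrambled shRNA. Its groups did not overlap (difference 0.19, SE 0.054, adjusted p = 0.032, limma), and the call held without Sirt6 shRNA replicate 1 or 2 (0.0361 and 0.0209) but not without any other array (0.0569 to 0.0832).

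All 4 of these calls were lost under median centring (differences 0.10 to 0.15, adjusted p = 0.131 to 0.244) and under spike-in scaling (0.22 to 0.27, adjusted p = 0.114 to 0.161), with the direction kept. Cacna2d2, known for its role in the cerebellum, gave -0.17 (95% interval -0.42 to 0.07) with overlapping groups, and Cacna2d4, a gene of the retina, stood well above background on 0 arrays.

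Beta subunits bind the pore inside the cell and control its gating and delivery. Of the 8 probes tested, of 4 genes, 0 were higher and 2 lower, against 28.4% called among all probes tested. Cacnb4, known from the lethargic mouse and its absence seizures, read 0.80, 0.67, 0.70 and 0.74 with the Sirt6 shRNA, against 0.93, 0.95, 0.91 and 1.01 with the scrambled shRNA. The groups did not overlap (difference -0.23, SE 0.042, adjusted p = 0.00609, limma), and a dim second probe gave 0.033 (adjusted p = 0.83). The Cacnb4 call was lost under spike-in scaling (-0.15, adjusted p = 0.351) and with the mean of both probes (-0.096, adjusted p = 0.217). Cacnb2 read 1.25, 1.18, 1.15 and 1.22 with the Sirt6 shRNA, against 1.28, 1.28, 1.31 and 1.34 with the scrambled shRNA. Its arrays did not overlap either, but the difference of -0.10 was not called (adjusted p = 0.0917, limma). Cacnb3 gave 0.04 (95% interval -0.06 to 0.14).

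Of the 3 probes of Cacnb1, the subunit of the skeletal muscle channel that is also made in brain, 1 was called. Their first 30 bases are shown because 2 of them overlap: these are shifted by 1 base and differ at 2 places of the 59 they share, in capitals, and the third lies elsewhere in the gene.
Cacnb1 A_44_P1162585, chr10:86764290-86764349, minus strand: tactcctctaggagagatattttGccacaT
Cacnb1 A_43_P11929, chr10:86764289-86764348, minus strand: actcctctaggagagatattttTccacaAa
Cacnb1 A_64_P064843, chr10:86767997-86768056, minus strand: agaaccaattggaagatgcctgcgagcacc
The overlapping probes gave -0.0079 (95% interval -0.13 to 0.12) and 0.045 (-0.10 to 0.19). The third and dimmest read -1.73, -1.56, -1.69 and -1.94 with the Sirt6 shRNA, against -1.35, -1.46, -1.42 and -1.51 with the scrambled shRNA. It was lower on all 4 arrays (difference -0.30, SE 0.08, adjusted p = 0.0279, limma). Its call held without scrambled replicate 4, Sirt6 shRNA replicate 2 or Sirt6 shRNA replicate 4 (adjusted p = 0.0431, 0.0133 and 0.0342) and was lost without any other array (0.0532 to 0.0683), under spike-in scaling (0.095) and with the mean of the gene's probes (0.12). The change of the brightest probe exceeded that of the third by 0.29 (exact permutation test, two-sided, p = 0.0857, Benjamini-Hochberg value 0.471).

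Of the gamma family, the TARP genes Cacng2 and Cacng3 rose. The 8 genes had 9 probes, of which 6 probes of 5 genes were tested. Among those, 2 were called higher and 0 lower, against 28.4% called among all probes tested. Cacng3 read -0.38, -0.41, -0.21 and -0.30 with the Sirt6 shRNA, against -0.73, -0.61, -0.74 and -0.67 with the scrambled shRNA. Cacng2, or stargazin, which takes AMPA receptors to the synapse, read 3.53, 3.42, 3.49 and 3.51 with the Sirt6 shRNA, against 3.24, 3.23, 3.23 and 3.27 with the scrambled shRNA. On both probes all 4 Sirt6 shRNA arrays lay above all 4 scrambled arrays. The differences were 0.36 for Cacng3 (SE 0.056, adjusted p = 0.0025, limma) and 0.24 for Cacng2 (SE 0.038, adjusted p = 0.00261, limma), or 1.29-fold and 1.18-fold. Under spike-in scaling Cacng3 kept its call (adjusted p = 0.0253) and Cacng2 lost it (0.32, adjusted p = 0.0602).

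The other TARP genes were not called. Cacng8, the TARP most typical of hippocampus, gave -0.015 (95% interval -0.21 to 0.18), and Cacng4 gave -0.13 (-0.37 to 0.12). The brighter and the dimmer probe of Cacng7 gave -0.23 and -0.36 (adjusted p = 0.145 and 0.117). On the brighter probe all 4 Sirt6 shRNA arrays lay below all 4 scrambled arrays, and on the dimmer one the groups overlapped. Cacng1, the gamma subunit of skeletal muscle, Cacng5 and Cacng6 were not well above background on enough arrays to be tested. Cacng1 was well above background on 0 Sirt6 shRNA arrays and 2 scrambled arrays.

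The 250 bases before the start of Cacng3 are shown because this window holds 2 copies of the RE1 core (RefSeq, GRCr8, capitals as above).
Cacng3, chr1:186632312-186632561, plus strand: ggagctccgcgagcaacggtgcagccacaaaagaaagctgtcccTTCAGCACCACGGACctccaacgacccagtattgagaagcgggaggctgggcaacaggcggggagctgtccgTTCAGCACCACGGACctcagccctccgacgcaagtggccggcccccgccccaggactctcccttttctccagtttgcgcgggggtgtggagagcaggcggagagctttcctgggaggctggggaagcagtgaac
The copies lie at -206 to -192 and at -134 to -120. These letters were in 4 of the 33469 promoters (0.01195%), and Cacng3 was the 1 promoter with 2 matches. Rest, which encodes the repressor known to bind such elements, was not called (level 1.02 with the Sirt6 shRNA and 1.01 with the scrambled shRNA, difference 0.012, adjusted p = 0.9, limma). The search covered these letters only and not the whole element, and whether REST binds here was not measured.

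**Figure D4:**
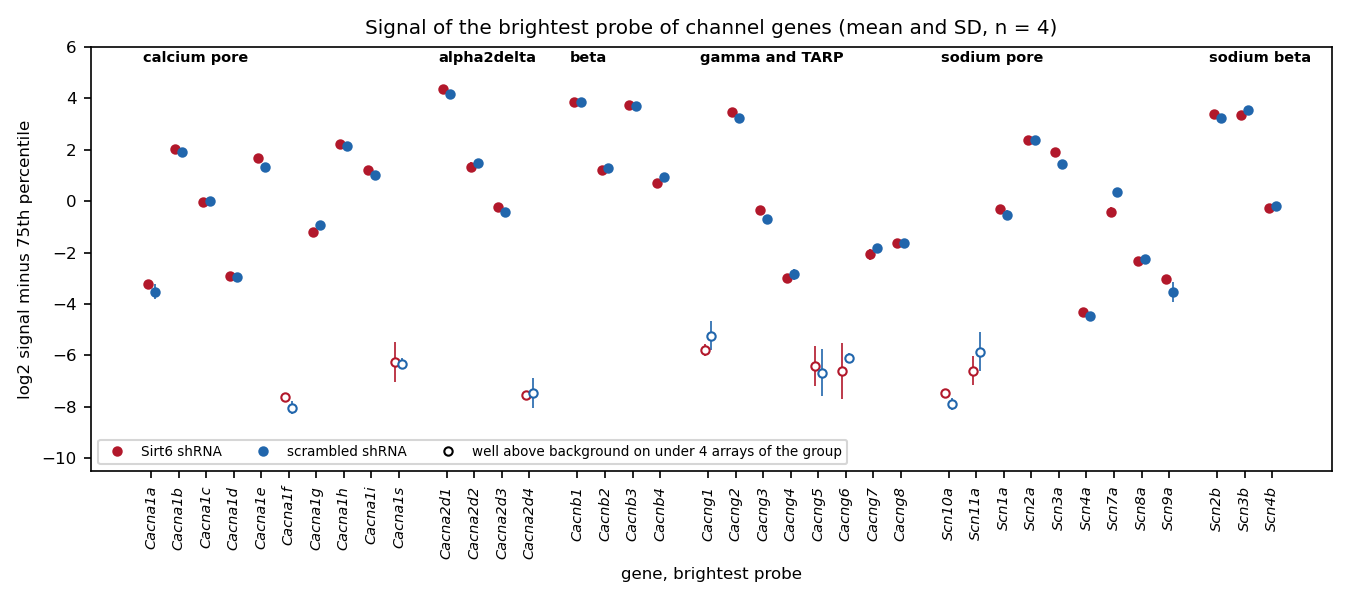
Level (log2 signal minus the array's 75th percentile) of the brightest probe of each of 38 channel genes, as mean and SD of the 4 Sirt6 shRNA arrays (red, left of each pair) and the 4 scrambled arrays (blue, right); open points mark a group with under 4 arrays well above background. Levels of different probes are not comparable with each other, and the open points are the 8 genes that were not tested.

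In all, 13 probes were not tested, of which 6 stood well above background on 0 arrays and 7 on 1 to 3 arrays, and 8 genes had no tested probe. No fold is given for them, since most of their readings were not well above background. For the 10-spot probes of Cacnb1, Cacng2 and Scn2b, the SD over spots of 1 array was 0.035 to 0.068, 0.021 to 0.068 and 0.048 to 0.091. Outlier spots were left out, 5 of them for Cacng2 over the arrays. The SD between Sirt6 shRNA arrays was 0.079, 0.050 and 0.073, and between scrambled arrays 0.069, 0.016 and 0.028, in the same order of genes.

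Proteins that bind, anchor or modify the channels were read on the brightest probe of each gene, while the share of all probes counts every kept probe. Of 23 names listed as sodium channel partners, 21 were tested, 2 higher and 2 lower. That is 19.0% called, against 28.4% of all probes. Cntn1, an axonal adhesion protein that takes sodium channels to the surface, fell by 0.45 on the log2 scale (adjusted p = 0.000202, limma), and Prkca, a kinase that phosphorylates the pore, fell by 0.15 (adjusted p = 0.0282, limma). Nalcn, a sodium leak channel related to the pores, rose by 0.26 (adjusted p = 0.0166, limma), and Ptprz1, a phosphatase that binds sodium channels, by 0.18 (adjusted p = 0.0438, limma). Ank3, which holds the channels at the axon initial segment, was not called (0.11, adjusted p = 0.305).

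Of 40 calcium channel partners, 37 were tested, 5 higher and 4 lower, or 24.3% called, also below the 28.4% of all probes. Stac2, an adaptor that binds L-type channels and slows their inactivation, had a level of -1.10 with the Sirt6 shRNA and 0.26 with the scrambled shRNA, a difference of -1.36 (SE 0.092, adjusted p = 7.15e-05, limma). Ahnak, a large scaffold that binds beta subunits, rose by 0.77 (adjusted p = 0.000176, limma), and Stx1a, the presynaptic SNARE that binds N-type and P/Q-type pores, by 0.39 (adjusted p = 0.000732, limma). Apba1, a presynaptic adaptor, had a difference of -0.43 (adjusted p = 0.00119, limma). Over both partner lists, 7 genes were higher, against 2 under median centring and 2 under spike-in scaling, and 6 were lower, against 2 under spike-in scaling. Of the partners named here, Nalcn and Ptprz1 lost their calls under both scalings (adjusted p = 0.0653 to 0.138), and Prkca (0.633) and Apba1 (0.0502) under spike-in scaling. The median difference was 0.022 over the sodium partners and 0.04 over the calcium partners, against 0.016 over all probes.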

How the data were processed

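Total RNA was labelled with Cy3 and hybridised to 8 one-colour Agilent arrays. Per the file headers and the submitters' processing notes, the deposited spot intensity values come from Agilent Feature Extraction 11.5.1.1 and hold its background subtraction and detrending. A deposited table holds the authors' log2 values, which equal the log2 signal minus 1 constant per array (SD of the difference 0.0029 over single-spot probes), so scale, centring on the 75th percentile and direction are known. Column medians ran from -3.70 to -3.59.

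Without control and outlier spots, log2 values of repeated spots were averaged by probe, and each array's 75th percentile was subtracted. Probes were kept if well above background on at least 4 of 8 arrays, and 1 probe with no usable spot on an array was left out. The probe was the unit, since the channels are chosen as probes. Groups and replicate numbers came from the labels. The two-sided test of limma 3.58.1 (R 4.3.3; lmFit, then eBayes) was run over all 28619 kept probes with Benjamini-Hochberg adjustment, and calls were made at an adjusted p under 0.05. Single differences between probes used exact permutation tests over the arrays. The fit was also run on simulated data with independent noise and few changed probes. That setting differs from these data, so no support is drawn from it. The number of arrays limits the precision.

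The channels and the partner and marker lists were chosen with earlier results of these data known. Array values were planned for called genes with a log2 difference of at least 0.3 in size and are also given for others, chosen after their values were seen. Partner genes named are the called ones of largest difference, up to 4 per list, and of marker lists up to 2 called genes, besides all called neuronal ones and Gjb6. Rest, Ank3, Pecam1 and Pdgfrb were named beyond that rule. Positions are those of the array design (rn4), and promoters those of RefSeq (GRCr8), used for sequence only. For 55 channel probes a RefSeq name was matched, and all 55 were the same. Counts cover all channel probes, but 2 of the genes are not reported here by name. Alternatives covered background correction, normalization, spike-in scaling, filters, the probe chosen per gene, the eBayes options, array weights, the replicate number and the omission of each array.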

Additional observations from a re-analysis of the deposited data

Results flagged for a closer look

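In 2 of 46 groups of 4 arrays looked at among the named probes, 1 array stood apart from the other 3 of its group. Chance alone gives about 1 such group in 20. The second Cacna2d1 probe (A_42_P767914) had a level of 3.28 in Sirt6 shRNA replicate 2, below the 3.42 to 3.43 of the other Sirt6 shRNA arrays. The Cacna1g probe (A_64_P004584) had a level of -1.17 in scrambled replicate 1, below the -0.86 to -0.82 of the other scrambled arrays. Without these arrays the differences were 0.20 (adjusted p = 0.0187, limma) for the Cacna2d1 probe and -0.36 (adjusted p = 0.00245, limma) for Cacna1g.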

How the results depend on the processing

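Of 477 values of the 23 named differences recomputed under 21 alternatives, 381 kept their direction and their side of the threshold, 77 lost their call, 10 gained one and 9 changed sign. The Sirt6, Scn3a, Scn7a and Cacng3 probes kept their calls under every alternative run on them. Channel probes called higher numbered 5 under median centring, 3 under E1A spike-in scaling, 6 with no filter on dim probes, 7 with the brightest probe per gene and 5 with the mean of a gene's probes, and 6 to 10 with 1 array left out. Those called lower numbered 3 under spike-in scaling, 4 with the mean of a gene's probes and 5 to 6 with 1 array left out. Of all probes, 2310 were higher under median centring, 2417 higher and 1454 lower under spike-in scaling, and 2940 to 3706 higher and 3256 to 3993 lower with 1 array left out. Partner genes called higher numbered 2 under median centring and 2 under spike-in scaling, against 7, and 4 to 9 with 1 array left out. Those called lower numbered 2 under spike-in scaling, against 6, and 5 to 7 with 1 array left out. The counts per gene come from fewer features, and the cause was not tested for the other settings. Spike-in scaling used 7 probes and moved the median difference of all probes to 0.091. The sign turned for the brightest Cacnb1 probe under quantile normalization (0.030) and spike-in scaling (0.067) and with 1 array left out (range -0.031 to 0.030), for Scn2a under median centring (-0.033) and with 1 array left out (range -0.021 to 0.033), and for Scn2b with the mean of its probes (-0.12).

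Samples of the same replicate number deviated together by r = 0.059, 0.149, 0.139 and 0.020, which does not establish pairing. With the replicate block, 9 channel probes were higher and 8 lower, and the calls of Cacna2d3 (adjusted p = 0.0584), Cacna1e (0.0542) and Scn2b (0.0666) were lost while the second Cacna1i copy was gained (0.0388). The 4 arrays a group, 1 slide and 1 shRNA per group limit these comparisons. Signals near background limit the dim probes of Scn2b, Scn7a, Scn9a, Cacna1c, Cacna1d and Cacna1e.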
